A study of Mus musculus with 27 samples.

Results

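The 10 genes described here belong to the circadian clock or are driven directly by it: Arntl, Clock, Npas2, Cry1, Per1, Per2, Per3, Nr1d1, Nr1d2 and Dbp. They were chosen by symbol, with GENCODE M21 names for the Ensembl gene IDs of the deposited table, and are 10 of its 43346 IDs. All 10 passed the filter on low counts that left 14482 genes for testing. Expression was measured by polyA RNA sequencing of hepatocytes, the parenchymal cells of the liver, from female mice aged 12 weeks. The study compared 9 inbred strains with 3 libraries each, and no genetic change or treatment is named in the labels. The libraries carry the numbers 1, 2 and 4 in C57BL/6J, 2, 3 and 4 in DBA/2J and in WSB/EiJ, 1, 4 and 5 in CAST/EiJ, and 1, 2 and 3 in 129S1/SvImJ, A/J, NOD/ShiLtJ, NZO/HlLtJ and PWK/PhJ. The labels call them biological replicates and do not say whether each came from a separate mouse, nor do they give the hour at which tissue was taken.

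The mammalian clock is a feedback loop of transcription. Arntl (BMAL1) pairs with Clock or with its close relative Npas2, and the pair binds E-box elements and switches on the Per and Cry genes, whose proteins return to the nucleus and block that pair. The same pair drives Nr1d1 and Nr1d2 (REV-ERB alpha and beta), nuclear receptors that repress Arntl, Clock, Npas2 and Cry1 through RORE elements, and it drives Dbp, a transcription factor that acts on D-box elements of output genes. In mouse liver, Arntl, Npas2 and Clock are known to peak around the end of the night, and Cry1 late in the night. Nr1d1, Dbp, Per3, Nr1d2, Per1 and Per2 are known to peak in the course of the day or near dusk. The first 4 are called the late-night group below and the other six the day group. From this textbook order, a pair with 1 gene from each group is called opposite (24 pairs), and a pair within a group is called a same-group pair (21 pairs).

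Library totals ran from 17015932 to 35078483 estimated counts. The summed level of 8 hepatocyte markers, Alb among them, ran from 99864 to 314574 CPM, the count scaled to a common library size. Markers of Kupffer cells, the liver's macrophages, summed to between 33.4 and 414.3 CPM over 10 genes, and those of liver endothelium to between 52.7 and 650.9 CPM over 8 genes. Both were highest in library 1 of PWK/PhJ. Cholangiocyte and lymphocyte markers summed to at most 3.62 and 1.44 CPM. In bulk libraries, fewer cells of a type and less RNA per cell cannot be told apart.

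The anti-phase pattern was present both between libraries of a strain and over the strain means. With the strain mean removed from each library, 23 of the 24 opposite pairs had a negative correlation of log2 CPM, with a median r of -0.57, and all 21 same-group pairs had a positive one, with a median r of 0.57. After adjustment over the 45 pairs, 14 opposite and 14 same-group pairs passed 0.05 in the two-sided permutation test within strains. Over the 9 strain means, 22 of 24 opposite pairs were negative and 21 of 21 same-group pairs positive, with medians of -0.71 and 0.73. In the exact permutation test of the strain means, 12 pairs of each kind passed after adjustment. The genes share libraries, and the 3 deviations of each strain sum to 0, so the pairs are not independent of each other. Each strain mean averages 3 of the same libraries and carries part of their spread. The pattern over strain means is therefore not a separate measure of differences between strains.

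**Figure D1:**
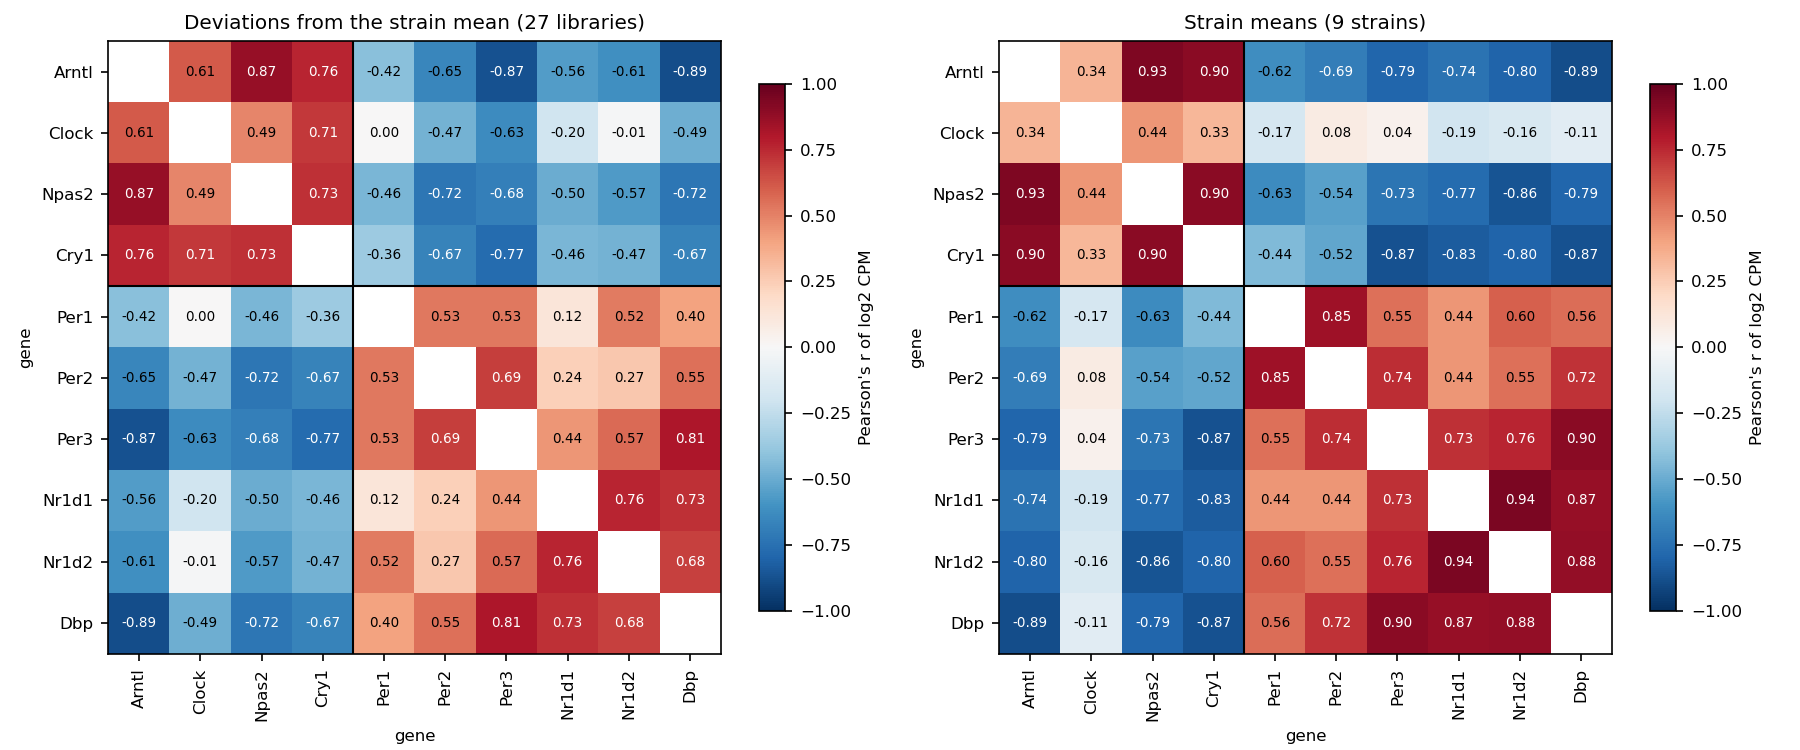
Pearson's r of log2 CPM for each pair of the 10 genes, on the left over the 27 libraries after removal of the strain mean and on the right over the 9 strain means; black lines part the late-night group (first 4) from the day group. The blocks across the lines are mostly blue (negative; 23 of 24 and 22 of 24 pairs) and those within a group are red (positive; 21 of 21 in both), and the row of Clock is pale on the right.

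Short promoter stretches of members that moved together or against each other are shown so that the elements named above can be seen in their sequence. RefSeq promoter windows on GRCm38.p6, from 250 bases before to 50 after a transcript start, were at hand for 9 of the 10 members (13 windows in all), and none for Per2. They were searched on both strands for the E-box CACGTG, the E'-box CACGTT, the D-box TTATGNAA and the RORE core TAGGTCA, of which no single site can be both E-box and E'-box, and which were chosen from textbook knowledge after the windows had been seen. Of all 32851 such windows, 7.15% hold the E-box, 4.68% the E'-box, 3.38% the D-box and 2.61% the RORE core. Capitals mark the match, the stretches run 5′ to 3′ on the gene's strand, and an E'-box on the other strand reads AACGTG.
Arntl, chr7:113207533-113207555, plus strand, RORE core: gcagaaagTAGGTCAgggacgga
Cry1, chr10:85185097-85185145, minus strand, E'-box and E-box: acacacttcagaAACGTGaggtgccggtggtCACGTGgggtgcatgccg
Per1, chr11:69098771-69098800, plus strand, E-box: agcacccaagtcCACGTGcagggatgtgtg
Per1, chr11:69098913-69098944, plus strand, D-box: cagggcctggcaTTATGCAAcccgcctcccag
Per3, chr4:151044851-151044882, minus strand, D-box: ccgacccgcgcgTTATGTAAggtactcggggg
Per3, chr4:151044804-151044835, minus strand, D-box: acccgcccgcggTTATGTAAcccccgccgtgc
Nr1d1, chr11:98775388-98775417, minus strand, E'-box: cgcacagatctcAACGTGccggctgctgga
Counted from the RefSeq start, the Arntl match began at position 31, the Cry1 E-box at position -60 and the Per1 D-box at position -24. The D-boxes of Per3 began at positions -205 and -158. The windows of Clock, Npas2, Nr1d2 and Dbp hold none of these letters. A match is a description of the sequence and not a measured binding site.

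The activators come first. Arntl (ENSMUSG00000055116, chromosome 7, 113207465 to 113314126, plus strand) encodes the subunit that the loop cannot do without. Its level was 9.95, 4.23 and 8.58 CPM in C57BL/6J, 15.9, 18.5 and 11.3 in 129S1/SvImJ, 14.5, 3.51 and 5.69 in A/J, 14.1, 11.5 and 15.7 in DBA/2J and 19.4, 17.8 and 19.0 in NOD/ShiLtJ. In NZO/HlLtJ it was 20.7, 20.4 and 22.4 CPM, in WSB/EiJ 13.0, 12.1 and 5.66, in CAST/EiJ 8.75, 5.13 and 12.7, and in PWK/PhJ 14.0, 19.8 and 14.7. The NZO/HlLtJ libraries lay above every other library, and the other strains overlapped their neighbours in the order of means. The mean was 21.2 ± 1.07 CPM (SD, n = 3) in NZO/HlLtJ and 7.59 ± 2.99 in C57BL/6J, the lowest strain. Arntl differed among strains with an adjusted p of 0.00559 (edgeR quasi-likelihood F test over all strains).

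Npas2 (ENSMUSG00000026077, chromosome 1, 39193731 to 39363236, plus strand), which can replace Clock as the partner of Arntl, spanned a wider range than Arntl. It stood at 13.7, 11.8 and 10.6 CPM in NZO/HlLtJ, at 9.32, 7.24 and 5.4 in NOD/ShiLtJ, and at 3.01, 1.08 and 0.79 in A/J. Library 2 of C57BL/6J had the lowest level, 0.493 CPM, against 3.38 and 2.78 in the other libraries of that strain. The highest library was thus 27.8 times the lowest. All NZO/HlLtJ libraries were above all others, the next strain being NOD/ShiLtJ, and the edgeR adjusted p among strains was 0.000752.

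Clock (ENSMUSG00000029238, chromosome 5, 76209868 to 76304792, minus strand) had the narrowest range of the members. Its 27 libraries had a lowest level of 19.5, a median of 29.1 and a highest of 37.4 CPM, a ratio of 1.92. Strain means ran from 25.5 ± 5.59 CPM in NOD/ShiLtJ to 34.6 ± 4.77 in NZO/HlLtJ (SD, n = 3), every neighbouring pair of strains overlapped, and the difference among strains did not pass the edgeR test (adjusted p = 0.46). Its correlation with the day group was between -0.63 (Per3) and 0.0 (Per1) within strains and between -0.19 and 0.08 over strain means.

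Cry1 (ENSMUSG00000020038, chromosome 10, 85131700 to 85185064, minus strand) encodes a repressor of the loop but peaks with the late-night genes. Its level was 13.7, 8.87 and 9.3 CPM in NOD/ShiLtJ and 10.9, 10.8 and 7.28 in NZO/HlLtJ, against 7.31, 2.75 and 3.66 in C57BL/6J. Means were 10.6 ± 2.65, 9.63 ± 2.04 and 4.58 ± 2.42 CPM (SD, n = 3), the libraries of neighbouring strains overlapped throughout the order, and the edgeR adjusted p among strains was 0.00937. Within strains Cry1 went with Arntl (r = 0.76, permutation p = 0.00043, adjusted p = 0.0046; rho = 0.71, p = 0.00081; r = 0.67 without the 2 libraries farthest from the Arntl median).

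Among the Per genes, which encode the partners of the Cry proteins in the repressor complex, Per2 had the clearest strain pattern. Per2 (ENSMUSG00000055866, chromosome 1, 91415982 to 91459324, minus strand) was at 0.878, 0.756 and 1.06 CPM in PWK/PhJ. The next strain up, 129S1/SvImJ, had 2.42, 2.4 and 4.53 CPM, and CAST/EiJ, the highest, had 18.2, 14.6 and 6.91. No PWK/PhJ library reached any library of another strain. The mean of 0.899 ± 0.154 CPM (SD, n = 3) in PWK/PhJ compares with 13.2 ± 5.77 in CAST/EiJ, a ratio of 14.7, and the edgeR adjusted p among strains was 5.98e-06. The other day genes were not at their lowest mean in PWK/PhJ, apart from Per1. Whether reads of each strain were aligned to that strain's own genome is not given in the sources used here.

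Per1 (ENSMUSG00000020893, chromosome 11, 69095217 to 69109960, plus strand), which also answers to glucocorticoids and other signals, varied more between libraries of a strain than between strains. Its level was 0.639, 0.893 and 14.7 CPM in PWK/PhJ, 1.35, 1.47 and 20.2 in NZO/HlLtJ, 1.92, 12.5 and 19.7 in 129S1/SvImJ and 3.29, 14.4 and 25.8 in A/J. DBA/2J was the exception with 8.78, 9.14 and 9.4 CPM. The highest library, number 4 of WSB/EiJ with 42.2 CPM, was 66.0 times the lowest. All neighbouring strains overlapped, and the difference among strains did not pass (edgeR adjusted p = 0.582).

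Per3 (ENSMUSG00000028957, chromosome 4, 151003652 to 151044665, minus strand) was low throughout NOD/ShiLtJ, at 1.2, 1.66 and 1.01 CPM. In A/J it was 1.14, 22.5 and 6.68 CPM and in WSB/EiJ 5.31, 5.28 and 18.6, so a single library set much of the mean in both. The edgeR adjusted p among strains was 0.0112.

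The repressors Nr1d1 (ENSMUSG00000020889, chromosome 11, 98767932 to 98775333, minus strand) and Nr1d2 (ENSMUSG00000021775, chromosome 14, 18204054 to 18239127, minus strand) were low in the same pair of strains. Nr1d1 was at 7.72, 18.7 and 16.0 CPM in NOD/ShiLtJ and 9.12, 13.6 and 9.85 in NZO/HlLtJ. In CAST/EiJ it was 87.7, 80.3 and 47.4 CPM. Its NOD/ShiLtJ and NZO/HlLtJ libraries lay below every library of the other strains, whose lowest value was 21.7 CPM. Nr1d2 was at 16.6, 21.7 and 26.9 CPM in NOD/ShiLtJ and 13.5, 22.9 and 20.5 in NZO/HlLtJ, against 51.0, 49.4 and 43.9 in CAST/EiJ. The highest of these, 26.9 CPM, overlapped PWK/PhJ (25.1 to 40.5 CPM) and lay below all libraries of the other strains. The edgeR adjusted p among strains was 0.000118 for Nr1d1 and 0.000307 for Nr1d2.

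Dbp (ENSMUSG00000059824, chromosome 7, 45705088 to 45710203, plus strand), the output factor, had the widest span of the 10, with a highest library 97.0 times the lowest. It was at 0.552, 0.589 and 0.557 CPM in NOD/ShiLtJ and 1.3, 0.759 and 0.77 in NZO/HlLtJ. In A/J it was 1.32, 50.0 and 3.99 CPM, in WSB/EiJ 3.33, 3.55 and 48.6, in C57BL/6J 3.28, 24.2 and 11.8 and in CAST/EiJ 16.0, 35.9 and 10.3. The CAST/EiJ libraries were all high, whereas a single library stood far above the others in A/J and in WSB/EiJ. The edgeR adjusted p among strains was 0.00171.

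Values of Nr1d1 and Dbp are less certain than the rest. Both overlap an exon of a gene on the other strand, Thra by 263 bases and Sphk2 by 539 bases, the library kit does not mark strand, and both have counts that are not whole in 27 of 27 libraries. Thra ran from 6.99 to 12.9 CPM and Sphk2 from 20.3 to 75.4 CPM. Counts of the other eight members were whole in every library. Without Nr1d1 and Dbp, 15 of 16 opposite pairs were negative and 12 of 12 same-group pairs positive within strains.

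**Figure D2:**
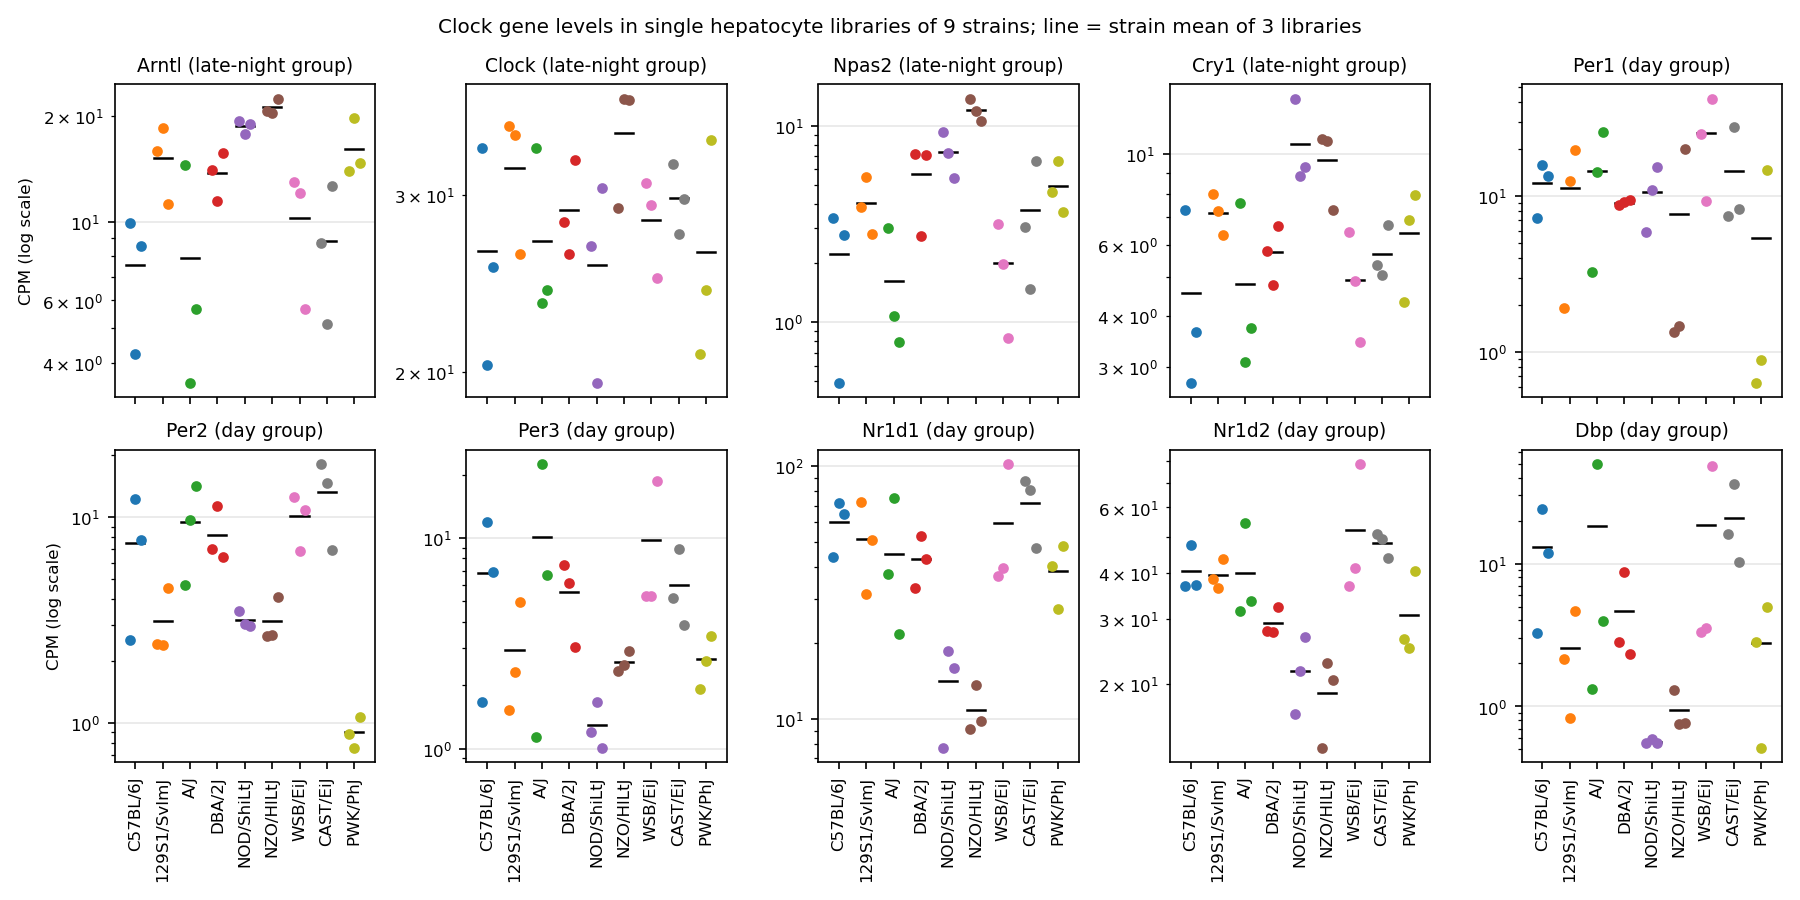
Level of each of the 10 genes in CPM (log axis) in the 27 libraries, by strain, with 1 point per library and a line at the strain mean of 3. Per2 is lowest in the 3 PWK/PhJ libraries (0.756 to 1.06 CPM), Nr1d1 in NOD/ShiLtJ and NZO/HlLtJ (7.72 to 18.7 CPM), and Per1 spreads widely inside most strains.

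Levels of different genes were compared per kilobase of exon, with all annotated exons of a gene merged. On that scale Nr1d1 was the highest on average, at 14.3 CPM per kb, followed by Nr1d2 at 6.59 and Dbp at 3.05. The mean of Dbp, 9.14 CPM, was far above its median of 3.28 CPM, so its place rests on a few high libraries. Per1 stood at 2.19, Clock at 2.09, Cry1 at 1.98, Arntl at 1.77, Per2 at 1.12, Npas2 at 1.01 and Per3 at 0.551 CPM per kb.

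Of the 10 genes, 8 differed among strains, all but Clock and Per1. The share called among all tested genes was 74.2%, so the count for the clock genes was near that of genes at large. Their spread inside strains was larger than usual: the within-strain SD of log2 CPM was above the median of all tested genes (0.28) for 9 of 10, and above the 90th percentile for Npas2 (0.83), Per1 (1.46), Per3 (1.03) and Dbp (1.49). Differences between strains made up 82.9% of the sum of squares for Per2, 77.6% for Nr1d1 and 73.7% for Nr1d2. They made up 30.8% for Clock and 38.4% for Per1, with a median of 66.6% over all tested genes. The share is not corrected for fitting 9 strain means to 27 libraries. A sizeable part of it therefore arises even without strain differences.

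Each strain was then set against the mean of the other eight in the edgeR fit. These 9 comparisons share libraries and are not independent. Of the 23 calls they gave for the 10 genes, 6 passed in each fit that left out a library and in each other alternative: Npas2 and, downwards, Nr1d1 and Nr1d2 in NZO/HlLtJ, Nr1d1 downwards in NOD/ShiLtJ, Per2 in CAST/EiJ and Per2 downwards in PWK/PhJ.

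In NZO/HlLtJ, 5 of 10 genes were called, against 27.6% of all tested genes. Arntl rose by 0.86 ± 0.26 on the log2 scale (SE; adjusted p = 0.0163), Npas2 by 1.79 ± 0.34 (adjusted p = 0.000366) and Cry1 by 0.68 ± 0.23 (adjusted p = 0.0282). Nr1d1 fell by 2.02 ± 0.38 (adjusted p = 0.000309) and Nr1d2 fell by 0.94 ± 0.21 (adjusted p = 0.00186). Dbp had a log2 difference of -2.66 ± 1.02 and did not pass (adjusted p = 0.054). Without library 1 or library 2 of NZO/HlLtJ 3 genes were called; Arntl stood at 0.87, 0.89 and 0.82 without libraries 1, 2 and 3 and did not pass (adjusted p of 0.0643, 0.0616 and 0.0663). Cry1 did not pass without library 1, at 0.58 (adjusted p = 0.165), or library 2, at 0.59 (adjusted p = 0.158). Without library 3 Per1 passed, at -3.07 (adjusted p = 0.0355), from -0.65 with all libraries. Summed Kupffer cell markers were at 73.0, 90.2 and 34.1 CPM in this strain, against a median of 90.2 CPM over all libraries, and endothelial markers at 52.7, 60.5 and 88.9 CPM, against a median of 144.2 CPM. With both lists as covariates 3 genes were called, Arntl at 0.62 (adjusted p = 0.215) and Cry1 at 0.3 (adjusted p = 0.517) no longer among them.

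In NOD/ShiLtJ, 5 of 10 genes were called, against 14.9% of all tested genes. Cry1 rose by 0.83 ± 0.22 on the log2 scale (SE; adjusted p = 0.0119). Nr1d1 fell by 1.59 ± 0.36 (adjusted p = 0.00314), Nr1d2 fell by 0.72 ± 0.21 (adjusted p = 0.0185), Per3 fell by 1.97 ± 0.64 (adjusted p = 0.0392) and Dbp fell by 3.49 ± 1.14 (adjusted p = 0.0398). The call count was 1 without library 1, 2 without library 2 and 3 without library 3 of the strain, and neither Dbp nor Per3 passed without any one of them. Dbp then stood at -3.47, -3.52 and -3.48 (adjusted p of 0.138, 0.14 and 0.139) and Per3 at -1.92, -2.19 and -1.82 (adjusted p of 0.144, 0.104 and 0.166). Without library 1 Cry1 stood at 0.61 (adjusted p = 0.183) and Nr1d2 at -0.56 (adjusted p = 0.166), and without library 2 Nr1d2 stood at -0.72 (adjusted p = 0.0843). Summed Kupffer cell markers were at 80.0, 74.5 and 69.5 CPM and endothelial markers at 106.7, 190.5 and 106.1 CPM, and with both lists as covariates Dbp stood at -3.18 and did not pass (adjusted p = 0.0703).

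In CAST/EiJ, 4 of 10 genes, all of the day group, were called, against 37.9% of all tested genes. Per2 rose by 1.57 ± 0.28 on the log2 scale (SE; adjusted p = 9.04e-05), Nr1d1 by 1.05 ± 0.29 (adjusted p = 0.00535), Nr1d2 by 0.57 ± 0.18 (adjusted p = 0.0172) and Dbp by 2.35 ± 0.64 (adjusted p = 0.00509). Without library 1 of CAST/EiJ 2 genes were called, Nr1d1 at 0.88 (adjusted p = 0.064) and Nr1d2 at 0.53 (adjusted p = 0.0891) no longer among them. Without library 4 there were 2 as well, with Nr1d2 at 0.55 (adjusted p = 0.0719) and Dbp at 1.69 (adjusted p = 0.116) not passing. Summed Kupffer cell markers were at 62.3, 68.5 and 56.8 CPM, all under the median of 90.2 CPM, and endothelial markers at 55.9, 149.4 and 142.9 CPM. With both lists as covariates Nr1d2 stood at 0.54 and did not pass (adjusted p = 0.0686).

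In A/J 4 genes were called, against 27.5% of all tested genes: Npas2 at -1.47 ± 0.49 on the log2 scale (SE) and Per2 at 1.03 ± 0.3, Per3 at 1.36 ± 0.46 and Dbp at 2.15 ± 0.65, with adjusted p-values of 0.0132 to 0.032. Without library 2 none was called: Dbp stood at -0.63 and Per3 at 0.01, while Per2 stayed at 1.02 (adjusted p = 0.0505) and Npas2 at -1.26 (adjusted p = 0.127). Without library 1 of A/J the 4 calls were joined by Arntl at -1.52 (adjusted p = 0.00188) and Cry1 at -0.94 (adjusted p = 0.0217). The 4 genes then stood farther from the other eight, Npas2 at -2.27, Per2 at 1.35, Per3 at 1.88 and Dbp at 2.69. Without library 3 of A/J the 1 gene called was Dbp at 2.62; Per3 was at 1.57, Npas2 at -1.13 and Per2 at 0.6. Kupffer cell markers summed to 131.5, 280.7 and 188.7 CPM in the A/J libraries, above the median of all libraries (90.2 CPM), and endothelial markers to 99.2, 148.0 and 205.7 CPM, and with both marker lists as covariates 0 genes were called, with Npas2 at -1.29, Per2 at 0.93, Per3 at 0.93 and Dbp at 0.96.

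In WSB/EiJ 4 genes were called, against 24.7% of all tested genes: Per2 at 1.12 ± 0.3 on the log2 scale (SE), Per3 at 1.3 ± 0.47, Nr1d2 at 0.7 ± 0.18 and Dbp at 2.15 ± 0.65, with adjusted p-values of 0.00581 to 0.0437. Without library 4 of WSB/EiJ the 1 gene called was Per2, at 1.06 (adjusted p = 0.0435), while Dbp stood at -0.27, Per3 at 0.43 and Nr1d2 at 0.28. The Per2 call was lost without library 2 of WSB/EiJ, at 0.93 (adjusted p = 0.0797), where Nr1d1 passed at 1.0 (adjusted p = 0.0374). Per3 was near the threshold, and its call was also lost without any one of 11 libraries of other strains.

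In PWK/PhJ the 1 gene called was Per2, against 34.2% of all tested genes; it fell by 2.79 ± 0.44 on the log2 scale (SE; adjusted p = 2.02e-05). Without library 3 of PWK/PhJ 2 genes were called, with Per1 at -4.0 (adjusted p = 0.011) the other, from -1.18 with all libraries. Summed Kupffer cell markers were at 414.3, 141.7 and 142.4 CPM and endothelial markers at 650.9, 199.5 and 222.7 CPM, all above the medians of 90.2 and 144.2 CPM. With both lists as covariates Per2 stood at -3.12 and passed (adjusted p = 0.000226). No gene was called in C57BL/6J, 129S1/SvImJ or DBA/2J with edgeR, against 18.1%, 18.4% and 13.3% of all tested genes. At an unadjusted p under 0.05 the counts were 4 in C57BL/6J and 1 in each of the other two, and DESeq2 called 1, 0 and 0. In C57BL/6J, the count became 2 without its library 1 (Cry1 at -1.05 and Per2 at 1.05), 3 without library 2 of A/J and 3 without library 4 of WSB/EiJ. In 129S1/SvImJ it became 1 without library 1 of C57BL/6J.

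The levels in single libraries were put on 1 scale as the mean log2 CPM of the day group minus that of the late-night group. This difference is a description and was not tested. The genes differ in level, so its sign has no meaning of its own. The highest values were 3.07 in library 4 of WSB/EiJ, 2.82 in library 2 of A/J and 2.81 in library 2 of C57BL/6J. The lowest were -2.35 and -2.24 in libraries 1 and 2 of NZO/HlLtJ and -2.16 in library 1 of NOD/ShiLtJ. With Nr1d1 and Dbp left out, the lowest were -2.37 and -2.16 in those NZO/HlLtJ libraries and -2.18 in library 2 of PWK/PhJ. Library 1 of PWK/PhJ then stood at -1.85 and library 1 of NOD/ShiLtJ at -1.8. Strain means ran from -2.01 ± 0.5 (SD, n = 3) in NZO/HlLtJ, -1.63 ± 0.47 in NOD/ShiLtJ and -1.13 ± 0.85 in PWK/PhJ up to 1.18 ± 1.88 in A/J, 1.23 ± 1.05 in CAST/EiJ, 1.24 ± 1.58 in C57BL/6J and 1.39 ± 1.46 in WSB/EiJ. Log2 differences of the PWK/PhJ day genes from the other eight were -2.79 (Per2), -1.18 (Per1), -0.91 (Dbp), -0.8 (Per3), -0.16 (Nr1d2) and 0.05 (Nr1d1). Of these, only that of Per2 passed in the edgeR test. Libraries of a strain differed by 0.86 in NOD/ShiLtJ and by up to 3.69 in A/J. In 8 of 9 strains, PWK/PhJ being the exception, the library with the lowest late-night level was the one with the highest day level. In 6 of 9 the library with the highest late-night level had the lowest day level. With 3 libraries per strain such matches also arise without any link. Both counts come from the same libraries and were not tested.

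**Figure D3:**
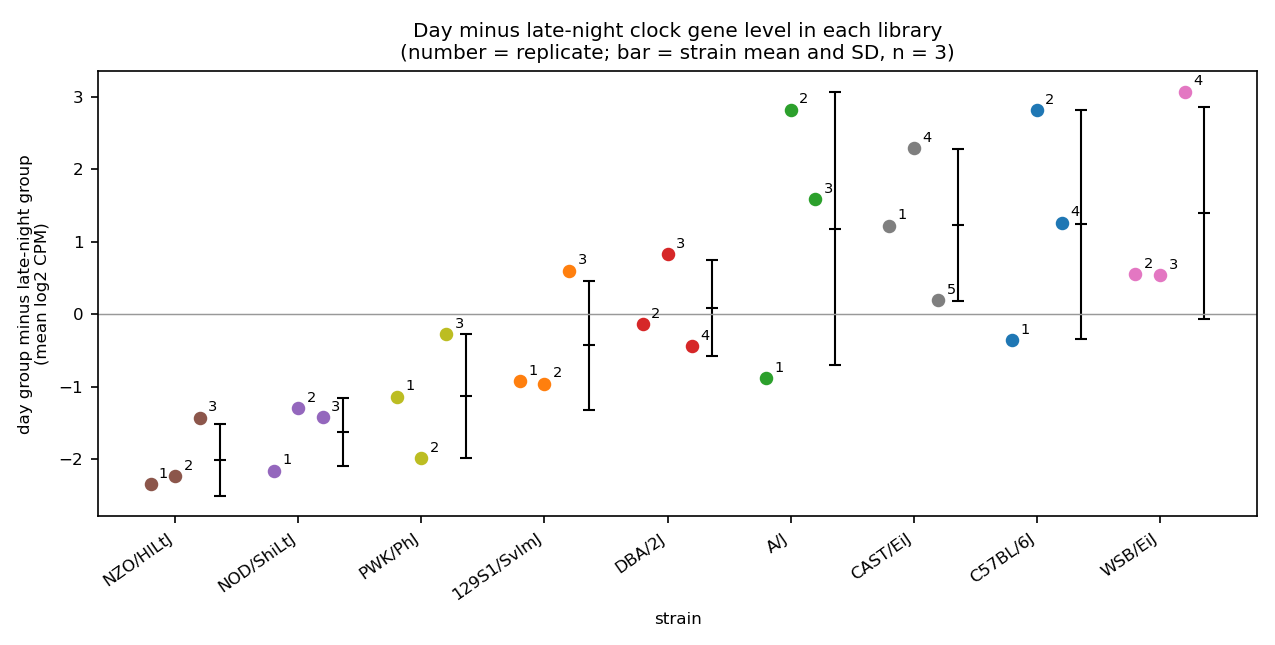
Mean log2 CPM of the 6 day genes minus that of the 4 late-night genes, by strain in order of the mean, with 1 point per library (number = replicate) and a bar for the strain mean and SD (n = 3). All libraries of NZO/HlLtJ, NOD/ShiLtJ and PWK/PhJ lie below 0, and library 4 of WSB/EiJ (3.07) and libraries 2 of A/J and C57BL/6J stand highest. The genes differ in level, so 0 has no meaning of its own.

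The pair with the most negative r within strains was Arntl and Dbp. Within strains r was -0.89 with a permutation p of 1e-05, the smallest that 100000 resamples can give (adjusted p = 0.00045 over 45 pairs), and rho was -0.86 (p = 1e-05). Without the 2 libraries farthest from the Arntl median r was -0.84. In 23 of 27 libraries the genes lay on opposite sides of their strain means. Over the 9 strain means r was also -0.89 (exact permutation p = 0.002, adjusted p = 0.0095), rho was -0.87 (p = 0.0045), and r was -0.97 without the 2 strains farthest from the median. Of the 14481 other tested genes, Dbp had the 2nd lowest r with Arntl within strains and Per3 the 3rd lowest, while Npas2 had the highest. The 1st and 99th percentiles of all genes' r with Arntl were -0.59 and 0.6.

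**Figure D4:**
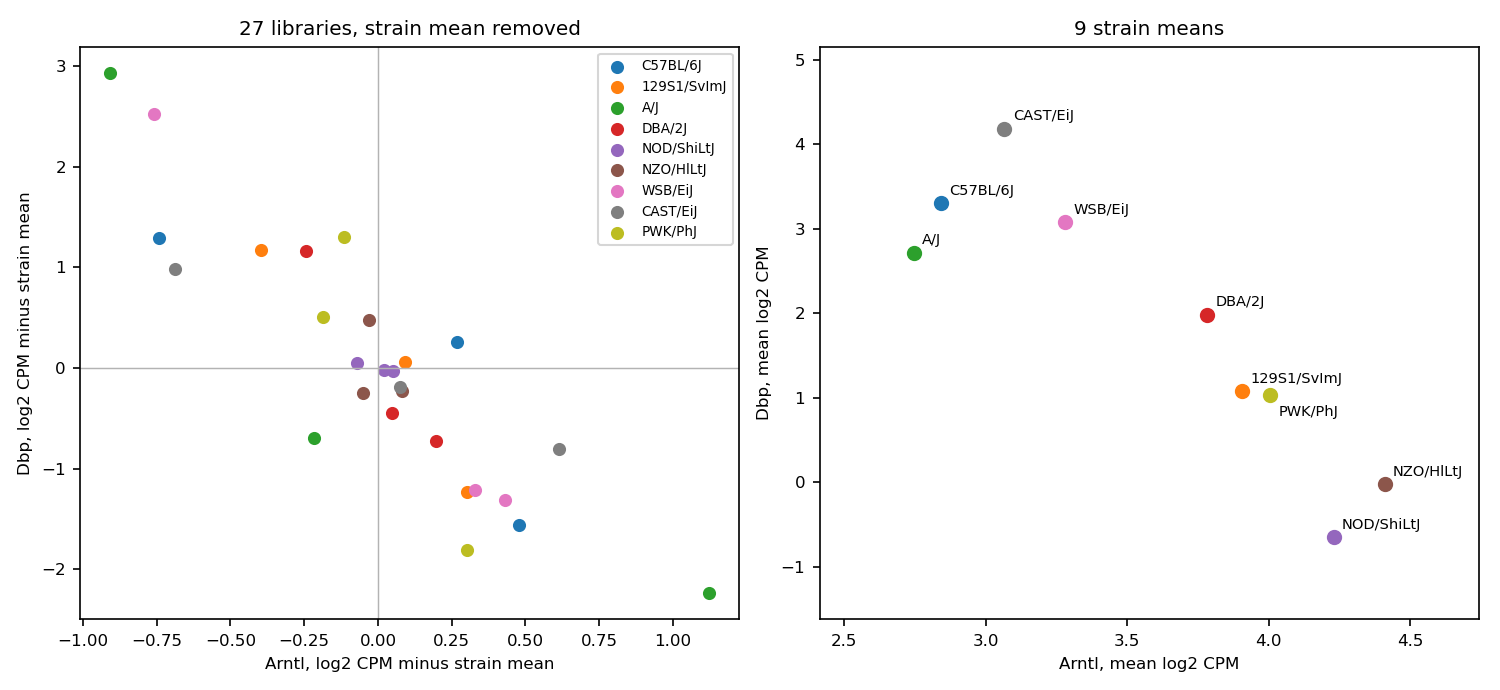
Dbp against Arntl in log2 CPM, on the left for 27 libraries after removal of the strain mean (r = -0.89) and on the right for the 9 strain means (r = -0.89); colours mark strains. Points fall from upper left to lower right in both panels, and libraries 2 of A/J and 4 of WSB/EiJ are the upper left points on the left.

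For Arntl and its repressor Nr1d1 the correlation was also negative. Within strains r was -0.56 (permutation p = 0.04, adjusted p = 0.055) and rho -0.57 (p = 0.016, adjusted p = 0.027), and r was -0.56 without the 2 libraries farthest from the median. Over strain means r was -0.74 (exact permutation p = 0.014, adjusted p = 0.033), rho was -0.72 (p = 0.037, adjusted p = 0.069), and r was -0.86 without the 2 strains farthest from the median. The unadjusted within-strain p was above 0.05 without any one of 10 libraries, where r ran down to -0.44 without library 2 of A/J, and over strain means it was above 0.05 without library 1 of A/J (r = -0.65).

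Per1 had uneven correlations with its own group inside strains. Its within-strain r was 0.12 with Nr1d1 (permutation p = 0.61) and 0.4 with Dbp (permutation p = 0.089), though 0.53 with Per2 and with Per3 (adjusted p = 0.0071 for both). Of 7 hormone or handling genes outside the clock lists, the one it followed most was Tsc22d3 (GILZ), a glucocorticoid target, with r = 0.87 (permutation p = 8e-05, adjusted p = 0.0056 over 70 pairs of a member with a hormone or handling gene), rho = 0.89 (p = 0.0001) and r = 0.87 without the 2 farthest libraries. Egr1, an immediate early gene, went the other way, with r = -0.86 (permutation p = 0.00023, adjusted p = 0.008), rho = -0.83 and r = -0.82 without those libraries. Fos (r = -0.8, permutation adjusted p = 0.036) and Pck1, a gluconeogenic enzyme (r = 0.81, permutation adjusted p = 0.01), passed as well, whereas Fkbp5 (0.4) and Sgk1 (0.26), also glucocorticoid targets, did not. By rank Pck1 passed with Per1 (rho = 0.77, permutation adjusted p = 0.0073) and Fos did not (rho = -0.7, permutation adjusted p = 0.062). Of the 70 pairs 5 passed by r, 4 with Per1 and the fifth Nr1d2 with Pck1 (r = 0.61).

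**Figure D5:**
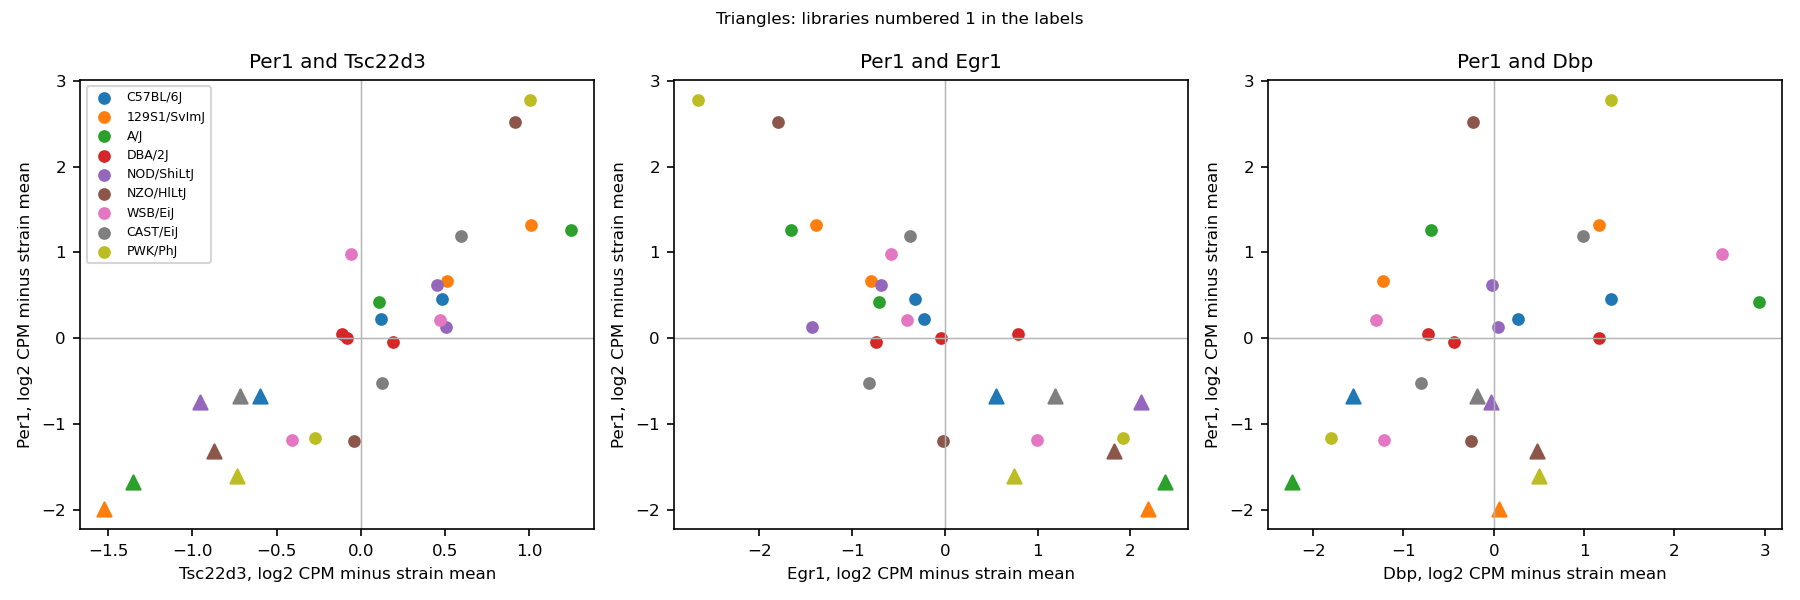
Per1 against Tsc22d3, Egr1 and Dbp over 27 libraries, each as log2 CPM minus the strain mean (colours mark strains, triangles the libraries numbered 1). Per1 goes with Tsc22d3 (r = 0.87) and against Egr1 (r = -0.86), has r = 0.4 with Dbp, and all 7 triangles lie below 0 on the Per1 axis.

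Per1 was lowest in the library numbered 1 in 7 of the 7 strains that have one, and so was Tsc22d3. Egr1 was highest there in 6 and Fos in 5. Of the other day genes, Per3 was lowest in that library in 5 strains, Nr1d2 in 4 and Per2, Nr1d1 and Dbp in 3 each. Of the late-night genes, Cry1 was highest there in 5, Clock and Npas2 in 4 each and Arntl in 3. What the number marks is not given in the labels, and its part in these results was not tested. Without all libraries numbered 1, which leaves 20, 23 of 24 opposite pairs were negative and 7 passed. The 7 strains that lose a library then allow fewer orderings in the permutation test. The count that passed cannot be set directly against that with all libraries. With the mean log2 CPM of 10 immediate early genes removed together with the strain, 22 of 24 were negative and 9 passed. With the Kupffer cell and endothelial lists removed instead, 23 were negative and 18 passed. These settings were chosen after seeing the data. The hour of collection, on which the level of these genes in liver is known to depend, was not in the labels, and its part was not tested.

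Other genes of the clock pathway, 27 in a list of regulators and outputs, were read in the same way. Of these, 18 differed among strains in the edgeR test, again near the 74.2% of all tested genes. Their correlation within strains passed with Arntl for 6 of 27 and with Dbp for 2 of 27 (permutation test, adjusted over 54 pairs). Tef, a relative of Dbp that binds the same element, had r = -0.9 with Arntl (permutation adjusted p = 0.0024; rho = -0.85) and r = 0.9 with Dbp (permutation adjusted p = 0.0011; rho = 0.83), and each was -0.84 or 0.84 without the 2 farthest libraries. It ran from 18.0 CPM in library 1 of NOD/ShiLtJ to 102.1 in library 4 of WSB/EiJ. Hlf, the third factor of that family, had r of -0.01 and 0.01 with Arntl and Dbp.

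Usp2, a deubiquitinase with a strong liver rhythm, had r = -0.84 with Arntl (permutation adjusted p = 0.0083) and 0.76 with Dbp (permutation adjusted p = 0.019). By rank it passed with Arntl (rho = -0.75, permutation adjusted p = 0.022) and not with Dbp (rho = 0.66, permutation adjusted p = 0.056). Usp2 ranged from 0.137 CPM in library 1 of A/J to 16.9 CPM in library 4 of CAST/EiJ. Ciart, a repressor of the Arntl and Clock pair, had r = -0.73 with Arntl (permutation adjusted p = 0.027), at levels of 0.0253 to 2.58 CPM. Its rho of -0.65 with Arntl did not pass (permutation adjusted p = 0.059). Por, Rgs16 and Upp2 were the remaining genes that passed with Arntl, all with negative r. By rank, Por and Rgs16 passed and Upp2 did not (rho = -0.63, permutation adjusted p = 0.068). Nfil3, which represses at D-boxes and is known to peak opposite to Dbp, had r = 0.72 with Arntl and -0.57 with Dbp and did not pass (permutation adjusted p of 0.11 and 0.16).

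Among 10506 named genes averaging at least 1 CPM, those most like Arntl over the 27 within-strain deviations were Npas2 (r = 0.87), Lgalsl, Lonrf3 and Rab2b (0.86 each) and Chka (0.85). The most opposed were Tef (-0.9), Dbp (-0.89), Per3 (-0.87), Usp2 (-0.84) and Stbd1 (-0.82). For Dbp the most alike were Tef (0.9), Per3 (0.81), Tns2 (0.8), Tbc1d10a (0.79) and Dedd2 (0.77), and the most opposed Arntl (-0.89), Lonrf3 (-0.84), Tars (-0.82) and Lgalsl (-0.79). Over the 9 strain means other genes led: Zc3hc1 (r = 0.96), Esd, Ddt and Ccdc12 (0.95 each) and Maz (0.94) for Arntl, and Met and D5Ertd579e (0.97 each), Tef (0.95), Cyp4v3 and Slc25a22 (0.92 each) for Dbp. The most opposed over strain means were Baz2b (-0.96) and Zzef1, Myo6 and Creb3l3 (-0.95 each) and Rab10 (-0.94) for Arntl, and Arl3 (-0.94) and Gsta3, Tradd, Itpa and Ppard (-0.93 each) for Dbp. These lists are ranks over the same libraries and carry no test.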

How the data were processed

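Per the labels' protocols, total RNA was taken with a column kit and polyA libraries were made with a TruSeq RNA v2 kit. The authors deposited 1 table of estimated counts per Ensembl gene, unscaled; 14.7% of values were not whole. The submitters' processing notes name GRCm38 (mm10), FastQC 0.11.5 and DESeq2; the aligner, counter and annotation release are not given in the sources used here. GENCODE M21 named 42462 of 43346 IDs and gave coordinates on GRCm38.

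Counts were rounded, then modelled by edgeR 4.0.16 under R 4.3.3, with limma 3.58.1: filterByExpr by strain, TMM factors (0.722 to 1.226), 1 quasi-likelihood model with strain as factor over 27 libraries, Benjamini-Hochberg adjustment over 14482 genes, called under 0.05. Standard errors were derived from the F statistic. CPM used TMM-adjusted library sizes, and log2 CPM a prior count of 2. Correlations used deviations from strain means (two-sided, 100000 permutations within strains) or strain means (exact, 362880 pairings). P-values measure only the spread between these libraries. Both scripts were tested on simulated data.

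Alternatives were DESeq2 1.42.0, RLE scaling, other count filters, a prior count of 0.5, rank correlation, the replicate number as a block, marker-list covariates and each library left out. Named genes were all members, 11 set genes of the wider clock list, 7 hormone or handling genes, and the 5 highest and 5 lowest r with Arntl and Dbp. Por, Rgs16 and Upp2 were named after their values were seen. Members and lists were chosen with earlier results of these data known. Some named genes' results are not reported here.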

Additional observations from a re-analysis of the deposited data

How the results depend on the processing

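The count of 8 members called among strains was the same in all 6 alternatives and without each of the 27 libraries, and the wider clock list gave 15 to 19 of 27 without each library. Without each library in turn, members called against the other eight ranged from 0 to 3 in C57BL/6J, 0 to 1 in 129S1/SvImJ, 0 to 6 in A/J, 1 to 7 in NOD/ShiLtJ, 3 to 7 in NZO/HlLtJ, 1 to 5 in WSB/EiJ, 2 to 4 in CAST/EiJ and 1 to 2 in PWK/PhJ, and DBA/2J stayed at 0. With no filter on low counts 3 were called in C57BL/6J, 1 in DBA/2J and 7 in WSB/EiJ, and DESeq2 called 1 in C57BL/6J. In A/J and WSB/EiJ it called 4 each, but Per3 was not among them. Per3 stood at 1.37 (DESeq2 adjusted p = 0.0556) in A/J and 1.31 (DESeq2 adjusted p = 0.0728) in WSB/EiJ. With Kupffer and endothelial covariates 0 were called in A/J and 3 in NZO/HlLtJ. Dbp reversed to -0.63 in A/J and to -0.27 in WSB/EiJ without the libraries named above, from a range that reached 2.69 and 2.65. The cause was not tested.

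Same-numbered libraries did not deviate together (76 pairs, r of -0.29 to 0.28, median 0.02), and 7 of 26 libraries were closest to one of their own number, so across all genes the numbers were not taken to pair the samples, although Per1 and Tsc22d3 were lowest in the library numbered 1 in 7 of 7 strains. With the replicate number as a block 2 members were called in A/J (Dbp at 2.14 and Per3 at 1.13 did not pass, adjusted p of 0.0616 and 0.0738), 1 in WSB/EiJ (Per2 at 1.01; Per3 at 0.91, Nr1d2 at 0.54 and Dbp at 1.29 did not pass) and 2 in PWK/PhJ (Per1 at -1.68 joined Per2), Dbp stood at -3.24 in NOD/ShiLtJ and did not pass (adjusted p = 0.0719), 10 opposite pairs and 12 same-group pairs passed, and Arntl with Nr1d1 had r = -0.5 (permutation p = 0.065). The count in NOD/ShiLtJ stayed at 5 with the block, since Npas2 passed at 1.05 (edgeR adjusted p = 0.0334). Under the block, Per1 kept its correlation with Tsc22d3 (r = 0.78) and Egr1 (r = -0.78), at a permutation adjusted p of 0.014 for both, and those with Pck1 (r = 0.69) and Fos (r = -0.57) did not pass (permutation adjusted p of 0.18 and 0.19). Nr1d2 with Pck1 did not pass either (r = 0.58, permutation adjusted p = 0.33), leaving 2 of 70 pairs. Of the 27 other clock genes, 6 passed with Arntl and 7 with Dbp under the block. Nfil3 passed with Arntl (r = 0.68, permutation adjusted p = 0.03) and Rgs16 did not (r = -0.23, permutation adjusted p = 0.61).

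Opposite pairs that passed numbered 10 to 17 without each library, 17 with RLE scaling and 9 with the immediate early covariate. Without all libraries numbered 1, a weaker test on 20 libraries, 7 passed. Arntl with Dbp kept r between -0.92 and -0.85 within strains and between -0.93 and -0.86 over strain means without each library. Arntl with Nr1d1 ranged from -0.68 to -0.44 and from -0.82 to -0.65, and had r = -0.53 with the immediate early covariate (permutation p = 0.058). Low depth limits Npas2, Per1, Per2, Per3 and Dbp most, with 12, 16, 22, 25 and 15 counts in their lowest libraries.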
